A study of Mus musculus with 48 samples.

Results

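The 10 genes described here belong to the Cyp2c subfamily of cytochrome P450 enzymes, and they were found in the count table by symbol (Cyp2c29, Cyp2c37, Cyp2c38, Cyp2c39, Cyp2c40, Cyp2c44, Cyp2c50, Cyp2c54, Cyp2c67 and Cyp2c69). They are 10 of the 55414 genes listed. All 10 passed the filter on low counts and were tested in every comparison. Their reads were counted in the livers of 48 mice of the FCG model of sex chromosomes and gonads, 6 in each of 8 groups. In FCG mice on the C57BL/6 background the Y chromosome (written XY-) lacks the testis-determining gene Sry, and an autosomal Sry transgene (SryTg) gives testes, so that the kind of gonad does not depend on the sex chromosomes. XX and XY- mice had ovaries (XX Ov, XY Ov), and XX;SryTg and XY-;SryTg mice had testes (XX Te, XY Te). All 48 mice were fed a high-fat diet (HFD, 60% of calories from fat) from 15 to 17 weeks of age. Mice of 4 groups kept their gonads (Intact) and were fed the diet for 11 weeks. Those of the other 4 were gonadectomized (GDX) at 75 days and fed it for 15 weeks, so ovariectomy and castration cannot be told apart from the time on the diet. The study's methods give somewhat different durations.

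Cytochromes P450 of the Cyp2c subfamily are haem enzymes of the endoplasmic reticulum that insert an oxygen atom into drugs, steroids, retinoids and fatty acids. They take electrons from the reductase Por, with help from cytochrome b5. Several members turn arachidonic acid into epoxides or hydroxylated products, and epoxide hydrolases clear the epoxides. In rodent liver the subfamily is known for differences between the sexes that follow the pattern of growth hormone secretion, which acts through STAT5, and for induction by drugs through the nuclear receptors CAR (Nr1i3) and PXR (Nr1i2).

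The mice gave 13071874 to 20045141 reads on genes, and at these depths 3 reads equalled 0.150 to 0.230 CPM (counts scaled to the library's total of reads on genes). Hepatocyte markers (7 of 7 with reads) summed to 77403 to 149441 CPM in every group, while the pancreatic list summed to 4.53 to 36.7 CPM and the kidney list to at most 4.59 CPM. All 24 XY mice had 46.0 CPM or more of Ddx3y. The library labelled XX Te Intact replicate 4 carried low levels of the Y-linked genes, with 3.82 CPM of Ddx3y, 1.91 of Uty and 3.88 of Eif2s3y, and it is the library with the highest Cyp2c40 and Cyp2c69 among intact mice with testes. Its part in those results was not tested, and they are given below with and without it. Among the other XX libraries, XX Te GDX replicates 4 and 5 had the most Ddx3y, at 1.53 and 0.763 CPM. Reads that fell on no annotated feature made up 3.47% to 6.20% of the reads in intact and 8.52% to 11.3% in GDX libraries, without overlap, so this too moved with every comparison of GDX with intact mice. Reads that matched several places (multimapping) made up 10.7% to 18.9% in intact and 8.59% to 10.8% in GDX libraries, with little overlap. Their part in these comparisons, for Cyp2c genes that share stretches of sequence, was not tested.

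In the NCBIM37 annotation 9 of the members lie in 1 cluster on chromosome 19, in the order Cyp2c29 (chr19:39315441-39405189), Cyp2c38, Cyp2c39, Cyp2c67, Cyp2c40 (chr19:39841561-39887304), Cyp2c69 (chr19:39917150-39961259), Cyp2c37, Cyp2c54 and Cyp2c50 (chr19:40164178-40188440). Cyp2c68 lies between Cyp2c67 and Cyp2c40. Cyp2c44 (chr19:44079512-44103737) lies apart from the cluster on the same chromosome. The authors aligned to GRCm39, whose coordinates differ from these. The coding sequences of Cyp2c40 and Cyp2c69 were 97.9% identical, those of Cyp2c67 and Cyp2c69 97.7%, those of Cyp2c37 and Cyp2c50 96.1% and those of Cyp2c38 and Cyp2c39 94.2%. Of the 50-base windows of each transcript, 72.1% in Cyp2c40, 53.5% in Cyp2c67 and 51.4% in Cyp2c69 occurred unchanged in another Cyp2c transcript. The share was 25.0% to 30.7% in Cyp2c37, Cyp2c50 and Cyp2c54, 7.45% in Cyp2c38, 11.4% in Cyp2c39 and 0.530% in Cyp2c29, and no window of Cyp2c44 was shared. Reads from shared stretches can have been left out or exchanged between these genes, so levels of single members of the Cyp2c40, Cyp2c67, Cyp2c68 and Cyp2c69 set are uncertain.

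The promoters of the 5 members called higher in intact mice with ovaries are shown next. Beside them stand those of a neighbour not called between ovaries and testes (Cyp2c67) and of Cyp2c29, which had the highest median CPM per kb of exon. Each stretch is RefSeq sequence of build GRCm38.p6 on the gene's own strand, ends before the annotated transcript start, and has in capitals the 9 bases nearest to CAAAGTCCA, an arrangement of the kind bound by HNF4A.
Cyp2c40 (chr19:39812815-39812889, minus strand): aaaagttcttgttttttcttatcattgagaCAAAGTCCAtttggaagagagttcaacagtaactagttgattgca
Cyp2c69 (chr19:39886795-39886874, minus strand): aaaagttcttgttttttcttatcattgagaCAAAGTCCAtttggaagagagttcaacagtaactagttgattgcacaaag
Cyp2c67 (chr19:39649118-39649197, minus strand): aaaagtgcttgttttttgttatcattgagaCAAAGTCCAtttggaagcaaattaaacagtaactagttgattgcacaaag
Cyp2c38 (chr19:39463137-39463216, minus strand): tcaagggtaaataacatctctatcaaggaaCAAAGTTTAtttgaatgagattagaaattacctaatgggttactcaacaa
Cyp2c39 (chr19:39510706-39510785, plus strand): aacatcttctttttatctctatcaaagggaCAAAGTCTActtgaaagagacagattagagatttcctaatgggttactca
Cyp2c37 (chr19:39992278-39992357, plus strand): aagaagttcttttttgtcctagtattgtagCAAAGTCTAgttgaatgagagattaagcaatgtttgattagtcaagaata
Cyp2c29 (chr19:39286946-39287025, plus strand): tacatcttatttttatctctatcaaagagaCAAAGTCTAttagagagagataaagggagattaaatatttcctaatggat
Over the 75 bases shown for both, Cyp2c40 and Cyp2c69 did not differ at any base, and Cyp2c67 differed from Cyp2c69 at 6 of 80. Promoter windows of 300 bases (250 before and 50 after the start) were given for 8 of the members, with 2 windows for Cyp2c39 and none for Cyp2c44 or Cyp2c54. The letters CAAAGTCCA, on either strand, were found in 3 of these 9 windows (Cyp2c40, Cyp2c67 and Cyp2c69) and in 0.475% of all 32851 windows. The looser CAAAGTNNA, which includes them, was found in 9 of 9 and in 4.21% of all. ATTGAT, the core of the HNF6 and CUX2 type, occurred in the windows of 5 members (Cyp2c37, Cyp2c40, Cyp2c50, Cyp2c67 and Cyp2c69) and in 7.54% of all. The STAT-type letters TTCNNNGAA occurred in 0 of 9 and in 8.30% of all, and CCAAT in 2 of 9 and in 37.4% of all. The letters were chosen after the windows had been read, and Cyp2c67 shared each motif that Cyp2c40 and Cyp2c69 held.

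In counts per kilobase of exon, Cyp2c29 was the highest member in each of the 8 groups, with group medians of 390.1 to 554 CPM per kb. Of the 50-base windows, 0.530% of those of Cyp2c29 were shared, against 29.2% in Cyp2c37 and 30.7% in Cyp2c50. Reads from shared windows can be missing from the counts, so the order of these members in RNA level is uncertain. Cyp2c37, a CAR-inducible enzyme, had medians of 281.6 to 399.8 CPM per kb outside the Te Intact groups, and 162 and 150.3 in those. Cyp2c50 had medians of 141 to 249 CPM per kb over the 8 groups. Its value rests on 2918 annotated exon bases, while 1 transcript of it holds 1812, so no order is given between Cyp2c37 and Cyp2c50. Cyp2c39 was low throughout, at medians of 1.65 to 10.2 CPM per kb. Summed over the 10 members, the group medians of 1233 to 1544 CPM per kb lay close together, with ranges of mice that overlapped between all 8 groups. In bulk liver, fewer cells that express a member and less RNA per cell cannot be told apart. The make-up of the sum varied more. Cyp2c69 gave a median of 10.004% of the members' reads in XX Ov Intact and 7.31% in XY Ov Intact mice, and 0.0399% and 0.0367% in XX and XY Te Intact mice. Cyp2c40 gave 4.67% and 3.52% in the Ov Intact groups and 0.0310% and 0.0216% in the Te Intact groups.

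**Figure D1:**
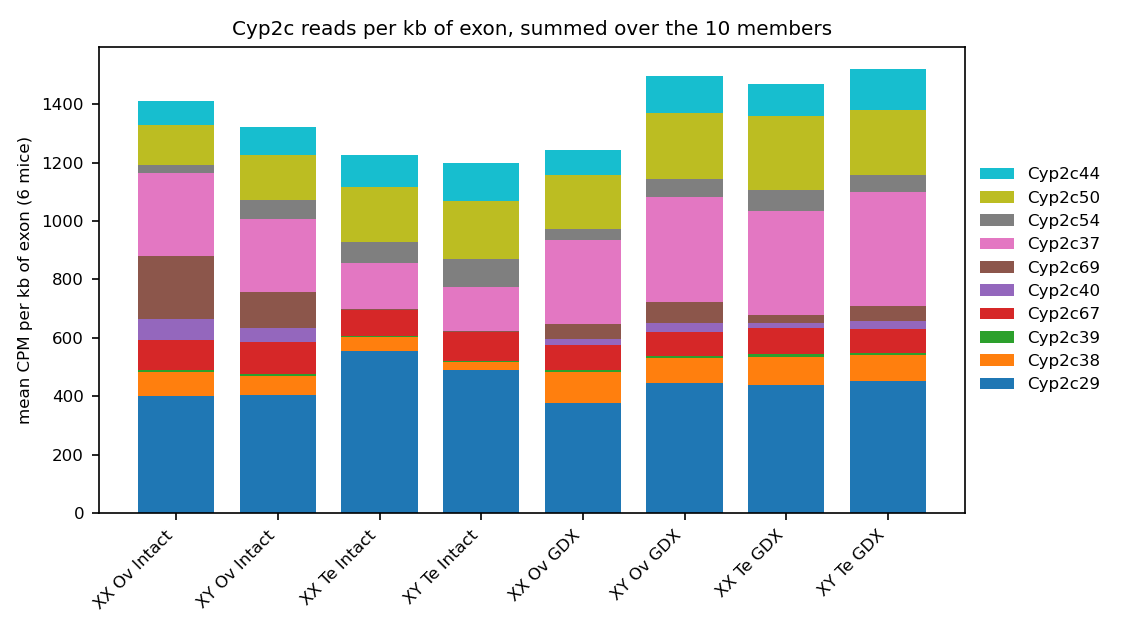
Mean CPM per kb of exon of each of the 10 Cyp2c members (colours), stacked by group, with 6 mice a group; the y axis starts at 0. The bars are of similar height, and the Cyp2c40 and Cyp2c69 segments are not visible in the 2 Te Intact groups.

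Cyp2c40, an arachidonic acid hydroxylase, and Cyp2c69 were the members that differed most between intact mice with ovaries and with testes. Cyp2c40 ran from 97.6 to 213 CPM (median 131) in XX Ov Intact and from 43.2 to 151 CPM (median 94.9) in XY Ov Intact mice. It ran from 0.484 to 6.84 CPM (median 0.643) in XX Te Intact and from 0.188 to 1.83 CPM (median 0.489) in XY Te Intact mice, where the lowest mouse had 3 reads. Every mouse with ovaries stood above every mouse with testes. The gonadal effect (12 Ov Intact minus 12 Te Intact mice) was a log2 fold change of 6.80 ± 0.45 (SE), adjusted p = 8.43e-16, by the quasi-likelihood test of edgeR, adjusted after Benjamini and Hochberg for 15414 tested genes. The adjusted p-values below come from this fit unless another is named.

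Cyp2c69 ran from 198 to 762 CPM (median 275) in XX Ov Intact and from 64.2 to 357 CPM (median 235) in XY Ov Intact mice. The values were 0.323 to 16.1 CPM (median 1.19) in XX Te Intact and 0.563 to 1.90 CPM (median 0.849) in XY Te Intact mice. Again the arms of 12 did not overlap, with a log2 fold change of 7.31 ± 0.58 (SE), adjusted p = 2.10e-13. The highest value of each gene among mice with testes, 6.84 CPM of Cyp2c40 and 16.1 of Cyp2c69, belonged to XX Te Intact replicate 4. The other 11 mice lay at 0.188 to 1.83 and 0.323 to 1.90 CPM, and without that library the log2 fold changes were 7.42 for Cyp2c40 and 8.22 for Cyp2c69. In order of group medians Cyp2c40 fell from XX Ov Intact through XY Ov Intact, XY Ov GDX, XY Te GDX, XX Ov GDX and XX Te GDX to XX Te Intact and XY Te Intact. Only XX Te GDX and XX Te Intact, neighbours in that order, did not overlap in range (6.88 to 52.4 against 0.484 to 6.84 CPM). For Cyp2c69 each neighbouring pair of groups overlapped.

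**Figure D2:**
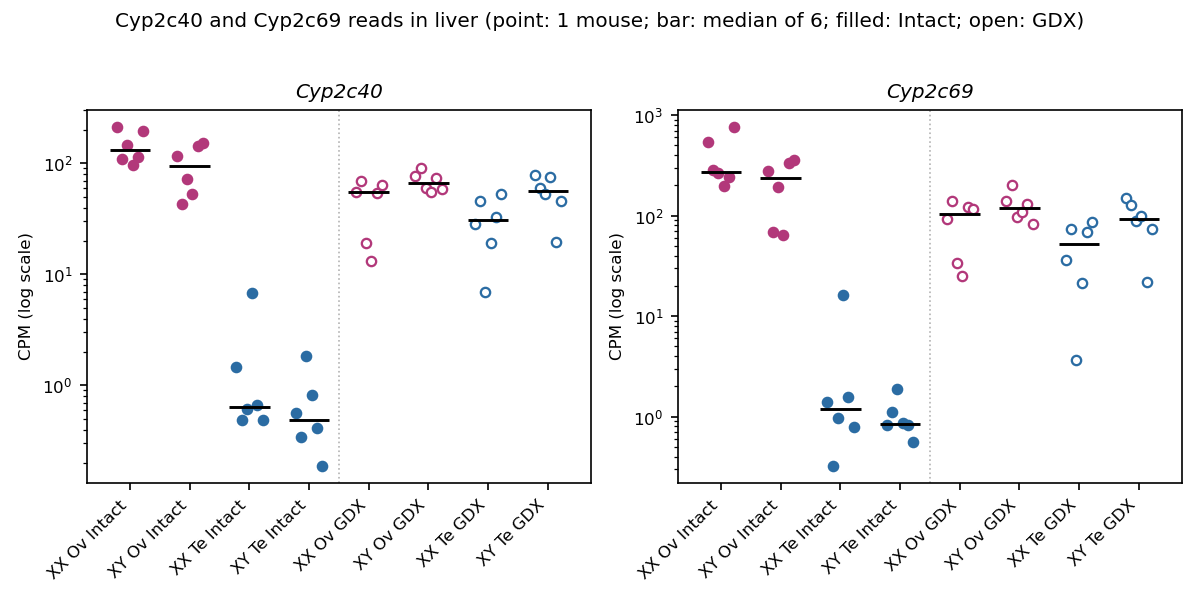
CPM of Cyp2c40 and Cyp2c69 in each mouse (points; 6 per group; bars are medians; y axes on a log scale; filled points Intact, open points GDX). In both panels the 12 Te Intact mice lie below the 12 Ov Intact mice, and the GDX mice with former testes lie near those with former ovaries.

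Cyp2c38 and Cyp2c39, neighbours in the cluster, and Cyp2c37 were also higher with ovaries. Cyp2c38, an arachidonic acid epoxygenase, ran from 179.7 to 279 CPM (median 253) in XX Ov Intact, 114 to 244 CPM (median 202) in XY Ov Intact, 92.7 to 210.3 CPM (median 133) in XX Te Intact and 35.7 to 106 CPM (median 88.1) in XY Te Intact mice. All 12 mice with ovaries were above the median of those with testes and 6 were above the highest of them, a log2 fold change of 1.01 ± 0.13 (SE), adjusted p = 9.65e-08. Cyp2c39, known to act on retinoic acid, had 5.002 to 18.4 CPM (median 16.3) and 7.56 to 12.6 CPM (median 10.3) in XX and XY mice with ovaries, against 3.86 to 9.20 CPM (median 5.74) and 0.691 to 3.58 CPM (median 2.996) with testes. Here 10 of the 12 mice with ovaries exceeded every mouse with testes, a log2 fold change of 1.56 ± 0.18 (SE), adjusted p = 6.95e-09. XY Te Intact, the lowest group of Cyp2c39, did not overlap with XX Te Intact, the next lowest. Cyp2c37 ran from 220.3 to 640.0 CPM (median 582) in XX Ov Intact, 216 to 725 CPM (median 516) in XY Ov Intact, 141 to 418 CPM (median 297) in XX Te Intact and 179 to 355 CPM (median 276) in XY Te Intact mice. Of the 12 mice with ovaries 9 stood above all with testes, while XX Ov Intact replicate 4 and 2 XY Ov Intact mice lay among them, at 216 to 220.3 CPM. Cyp2c37 thus differed by a log2 fold change of 0.82 ± 0.22 (SE), adjusted p = 0.00514.

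**Figure D3:**
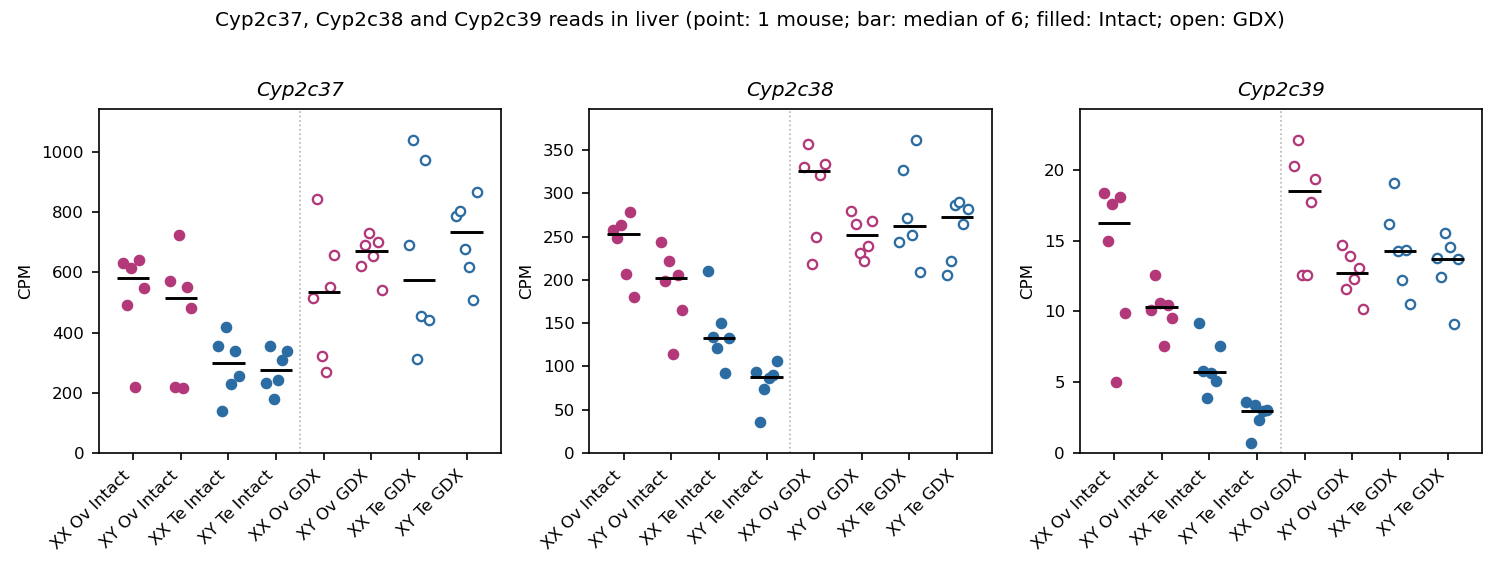
CPM of Cyp2c37, Cyp2c38 and Cyp2c39 in each mouse (points; 6 per group; bars are medians; linear axes from 0; filled points Intact, open points GDX). The 2 Te Intact groups have the lowest medians in each panel, and the 4 GDX groups lie near the level of intact mice with ovaries.

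The remaining members differed little or in the other direction. Cyp2c29, an epoxygenase induced through CAR, had 518 to 1010.1 CPM (median 799.6) in Ov Intact and 437 to 1665 CPM (median 1044) in Te Intact mice, which overlapped. All 12 mice with ovaries were at or below the median of those with testes and 7 mice with testes exceeded all with ovaries, a log2 fold change of -0.38 ± 0.14 (SE), adjusted p = 0.0452. The call was lost when any one of 14 mice was left out, namely XX Te Intact replicates 1, 3, 4 and 5, XY Te Intact 4, 5 and 6, XX Ov Intact 1, 2, 4 and 5 or XY Ov Intact 2, 4 and 5, with adjusted p-values of 0.00374 to 0.112 over the 48. Cyp2c44, an epoxygenase also known from kidney and vessels, had 101 to 316 CPM (median 151) and 105 to 338 CPM (median 246), a log2 fold change of -0.44 ± 0.16 (SE), adjusted p = 0.0337, which overlapped. Its call was lost when any one of 10 mice was left out (XX Te Intact replicates 1, 3 and 5, XY Te Intact 4 and 5, XX Ov Intact 1, 2 and 6 or XY Ov Intact 2 and 5), with adjusted p-values of 0.00600 to 0.0831 over the 48. Both calls also ended in the fit of intact mice alone and without the filter on low counts, and at a required fold change above 1.5. That of Cyp2c44 ended with library totals (adjusted p = 0.0648) and with 1 surrogate variable (0.0503) too. Cyp2c54 had 11.1 to 305 CPM (median 58.0) and 16.0 to 254 CPM (median 152), with a log2 fold change of -0.96 ± 0.38 (SE), adjusted p = 0.0571. Both the lowest 2 mice and the highest mouse of the 24 had ovaries. Cyp2c54 was called lower with ovaries with 1 surrogate variable (adjusted p = 0.0210) and without any one of 5 mice (XX Te Intact replicate 2, XY Te Intact 1, XX Ov Intact 1, XY Ov Intact 3 or XX Ov GDX 1), with adjusted p-values down to 0.0178. Cyp2c50, an epoxygenase close to Cyp2c37 in sequence, had 137 to 791 CPM (median 434) and 246 to 772 CPM (median 613), and gave -0.41 ± 0.19 with adjusted p = 0.0927 on the log2 scale. It was called lower with 1 surrogate variable (adjusted p = 0.0391) and without XX Te Intact replicate 2 (0.0298) or XY Ov Intact replicate 3 (0.0354). Cyp2c67 gave 0.16 ± 0.13 with adjusted p = 0.369, with 141 to 235 CPM (median 188) in Ov Intact and 118 to 219.5 CPM (median 158) in Te Intact mice. In order of group medians each neighbouring pair of groups overlapped for these 5 members, as for Cyp2c37 and Cyp2c38. In GDX mice Cyp2c29 had 517 to 942 CPM (median 825) with former ovaries and 549.8 to 1129.6 CPM (median 859) with former testes. Cyp2c44 had 126 to 323 CPM (median 205) and 123 to 295 CPM (median 260.2), and Cyp2c50 407 to 845 CPM (median 631) and 452 to 962 CPM (median 708). All of these arms overlapped.

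**Figure D4:**
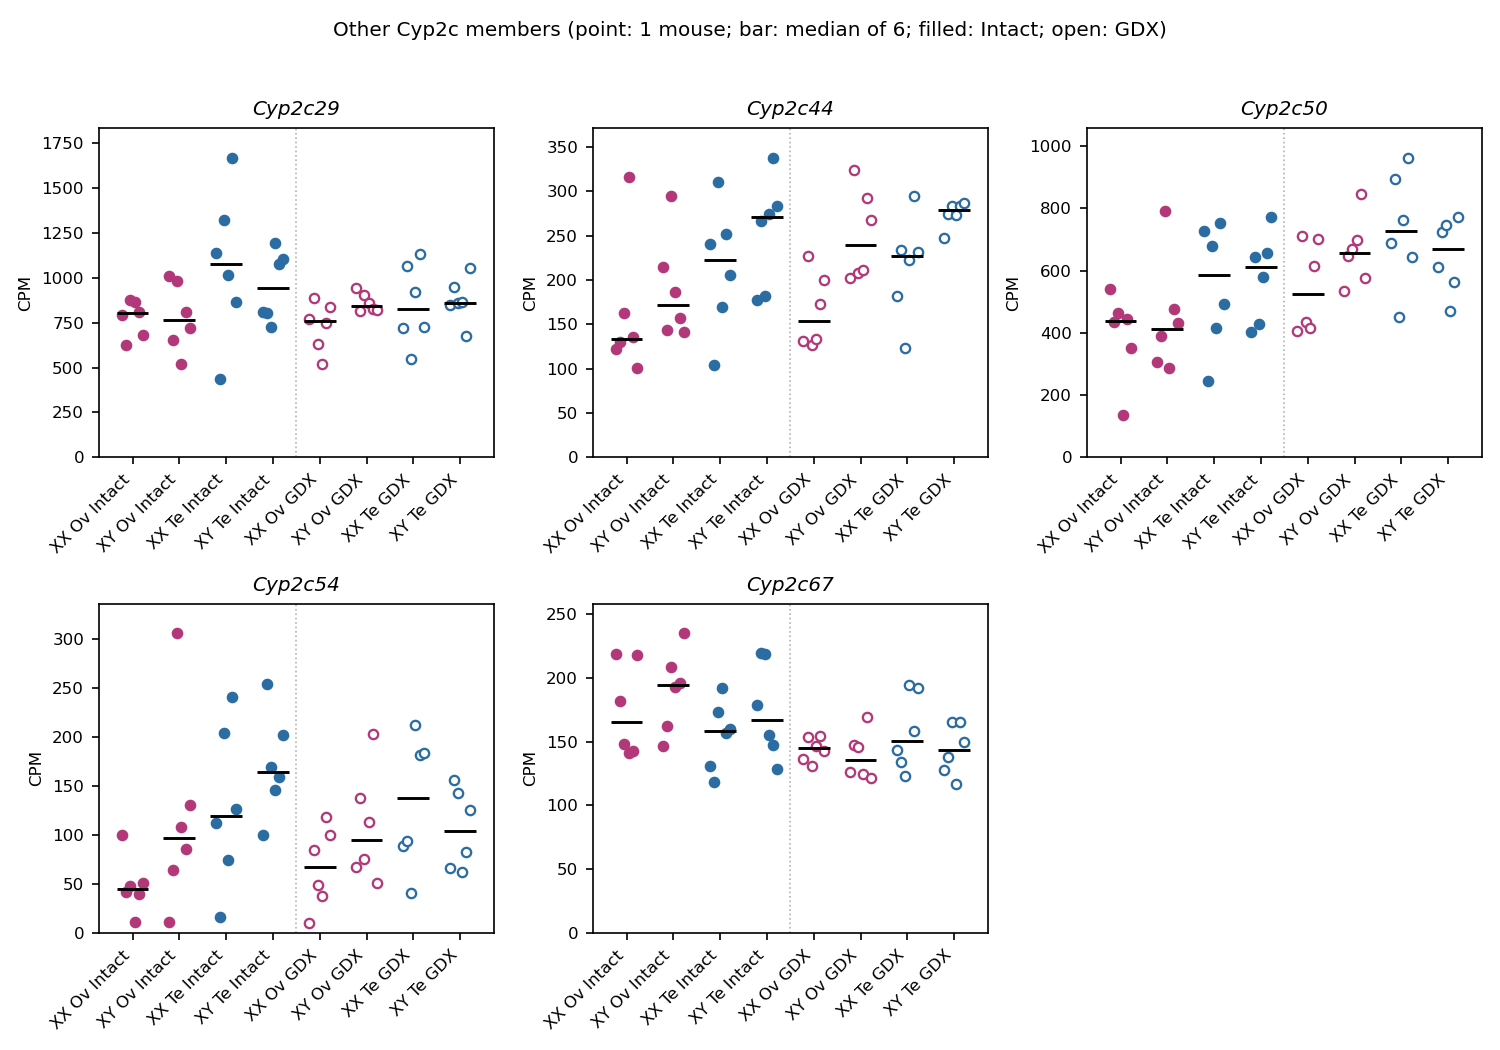
CPM of Cyp2c29, Cyp2c44, Cyp2c50, Cyp2c54 and Cyp2c67 in each mouse (points; 6 per group; bars are medians; linear axes from 0; filled points Intact, open points GDX). The groups overlap in each panel, except XX Ov GDX and XY Te GDX for Cyp2c44 and XX Ov Intact and XY Te Intact for Cyp2c54, and Cyp2c54 is spread most within groups, from 11.1 to 305 CPM in XY Ov Intact mice.

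In all, 5 of the 10 members were higher in intact mice with ovaries, where 14.1% of all tested genes were called in that direction, and 2 were lower (11.3% of all). The members' median log2 fold change was 0.49 and that of all tested genes 0.04. Among the Cyp2c genes that are not members, Cyp2c68 had 181 to 396 CPM (median 302) in Ov Intact and 77.8 to 147 CPM (median 104) in Te Intact mice, which did not overlap, a log2 fold change of 1.58 ± 0.14 (SE), adjusted p = 1.66e-12. Cyp2c70, which makes muricholic bile acids in mice, gave 0.77 ± 0.18 with adjusted p = 0.00194 and Cyp2c55 -0.45 ± 0.20 with adjusted p = 0.0889. Cyp2c65 and Cyp2c66 had at most 2 reads in any mouse and were not tested. With the near-identical Cyp2c40, Cyp2c67, Cyp2c68 and Cyp2c69 summed before the fit, the set still differed, by a log2 fold change of 1.76 ± 0.17 (SE), adjusted p = 9.93e-11. The sums of Cyp2c29, Cyp2c38 and Cyp2c39 (-0.16 ± 0.13, adjusted p = 0.349) and of Cyp2c37, Cyp2c50 and Cyp2c54 (0.01 ± 0.20, adjusted p = 0.965) did not pass the test. These sums are led by their most abundant members, Cyp2c29, Cyp2c37 and Cyp2c50. No difference of the gonadal effect was called between XX and XY intact mice for any member by edgeR, with 0% of all genes called (of the members 0 at an unadjusted p under 0.05, and 0 with DESeq2), and for Cyp2c40 this difference was -0.55 ± 0.84 with adjusted p = 0.902. Of all 15414 genes, 989 had an unadjusted p under 0.05 in this test.

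After castration (12 Te GDX minus 12 Te Intact mice) 5 members were higher, Cyp2c37, Cyp2c38, Cyp2c39, Cyp2c40 and Cyp2c69, where 33.4% of all genes were called higher. Cyp2c29 and Cyp2c67 were lower, where 29.9% of all were called lower. Cyp2c40 had 6.88 to 52.4 CPM (median 30.6) in XX Te GDX and 19.6 to 78.2 CPM (median 56.5) in XY Te GDX mice, all 12 above all Te Intact mice, a log2 fold change of 5.02 ± 0.43 (SE), adjusted p = 1.29e-12. Cyp2c69 had 3.63 to 86.3 CPM (median 52.3) and 21.9 to 149 CPM (median 93.2), with 11 of 12 above all Te Intact mice and XX Te GDX replicate 3 at 3.63 CPM, a log2 fold change of 4.93 ± 0.53 (SE), adjusted p = 4.70e-10. Without XX Te Intact replicate 4 these log2 fold changes were 5.65 for Cyp2c40 and 5.84 for Cyp2c69. The other 11 Te Intact mice had at most 1.90 CPM of Cyp2c69, below all 12 Te GDX mice. Cyp2c38 rose to 205 to 362 CPM (median 268), with 10 of 12 mice above all intact ones (1.14 ± 0.13 with adjusted p = 1.98e-09), and Cyp2c39 to 9.12 to 19.0 CPM (median 14.0), with 11 of 12 above (1.56 ± 0.18 with adjusted p = 1.96e-09). Cyp2c37 reached 311 to 1039.9 CPM (median 686), 11 of 12 mice above all intact ones (1.08 ± 0.22 with adjusted p = 5.06e-05). Cyp2c29 gave -0.43 ± 0.14 with adjusted p = 0.00907 and Cyp2c67 -0.36 ± 0.13 with adjusted p = 0.0168, and both calls were lost with library totals in place of TMM scaling, which moved the median of all genes from 0.07 to 0.27. The members' median was 0.58. Both were also lost at a required fold change above 1.5, and that of Cyp2c67 with 1 surrogate variable (adjusted p = 0.0866) and without XY Te Intact replicate 3 (0.0525). The sum of Cyp2c40, Cyp2c67, Cyp2c68 and Cyp2c69 rose by 0.60 ± 0.17 with adjusted p = 0.00220. Cyp2c44, Cyp2c50 and Cyp2c54 gave -0.14 ± 0.15 with adjusted p = 0.448, 0.09 ± 0.19 with adjusted p = 0.682 and -0.54 ± 0.38 with adjusted p = 0.212.

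After ovariectomy (12 Ov GDX minus 12 Ov Intact mice) 0 members were higher by edgeR and by DESeq2, where 36% of all genes were called higher, and Cyp2c40, Cyp2c67 and Cyp2c69 were lower, where 33.4% were called lower. Cyp2c40 had 13.3 to 69.1 CPM (median 54.8) in XX Ov GDX and 55.3 to 90.5 CPM (median 66.9) in XY Ov GDX mice. Of the 12 intact mice 9 lay above all 12 GDX mice, a log2 fold change of -1.35 ± 0.33 (SE), adjusted p = 4.32e-04. Cyp2c69 had 24.8 to 139 CPM (median 104) and 82.3 to 203 CPM (median 119), with 8 of 12 intact mice above all GDX mice, a log2 fold change of -1.73 ± 0.44 (SE), adjusted p = 5.48e-04. With 1 surrogate variable in the model the fall of Cyp2c69 was smaller and no longer called (log2 fold change of -0.95, adjusted p = 0.0562). Cyp2c67 fell from 141 to 235 CPM (median 188) to 121 to 169 CPM (median 145), a log2 fold change of -0.62 ± 0.13 (SE), adjusted p = 6.51e-05. All 3 tested Cyp2c genes that are not members were lower too, with log2 fold changes of -0.81 ± 0.13 with adjusted p = 1.02e-06 for Cyp2c68, -0.77 ± 0.18 with adjusted p = 3.26e-04 for Cyp2c70 and -0.89 ± 0.21 with adjusted p = 2.76e-04 for Cyp2c55. The sum of Cyp2c40, Cyp2c67, Cyp2c68 and Cyp2c69 gave -1.08 ± 0.17 with adjusted p = 4.87e-07. Cyp2c38 and Cyp2c39, called after castration, gave 0.14 ± 0.13 with adjusted p = 0.321 and 0.09 ± 0.17 with adjusted p = 0.635, and Cyp2c37 gave 0.02 ± 0.22 with adjusted p = 0.931. The remaining 4 members gave log2 fold changes from -0.19 ± 0.14 with adjusted p = 0.234 for Cyp2c29 to 0.28 ± 0.19 with adjusted p = 0.170 for Cyp2c50. With library totals, which moved the median of all genes from 0.06 to 0.27, Cyp2c38 (0.36, adjusted p = 0.0119) and Cyp2c50 (0.52, adjusted p = 0.00870) were called higher, the latter also with 1 surrogate variable (0.47, adjusted p = 0.0496). The call of Cyp2c67 was lost at a required fold change above 1.5 (adjusted p = 0.495). The members' median was -0.03.

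The castration effect was higher than the ovariectomy effect for 5 members in a test of the difference, where 5.6% of all genes were called in either direction. By its weights this contrast also equals the gonadal effect in intact mice minus that after GDX, so it is not independent of them. Cyp2c40 and Cyp2c69 rose after castration and fell after ovariectomy. The log2 differences were 6.37 ± 0.54 with adjusted p = 1.37e-11 for Cyp2c40, 6.67 ± 0.69 with adjusted p = 2.86e-09 for Cyp2c69, 1.47 ± 0.25 with adjusted p = 8.24e-05 for Cyp2c39, 1.06 ± 0.31 with adjusted p = 0.0321 for Cyp2c37 and 0.995 ± 0.18 with adjusted p = 3.77e-04 for Cyp2c38. Cyp2c68 (1.67 ± 0.19 with adjusted p = 2.77e-08) and Cyp2c70 (1.04 ± 0.26 with adjusted p = 0.0110) passed this test too. The call of Cyp2c37 was lost without any one of 5 mice (XX Te GDX replicates 2 and 5, XY Ov Intact replicates 5 and 6 and XX Ov Intact replicate 6), with adjusted p-values of up to 0.0546. It was also lost without the filter on low counts (adjusted p = 0.0959), with 1 surrogate variable (0.0598) and, as that of Cyp2c38, at a required fold change above 1.5. After GDX, mice with former ovaries and former testes overlapped for every member, and 0 of 10 passed edgeR's test of their difference (0 at an unadjusted p under 0.05, and 0 with DESeq2). Of all genes 0.0584% were called higher and 0.0324% lower with former ovaries, and 475 of 15414 had an unadjusted p under 0.05. The 95% intervals of this log2 difference were -0.21 to 1.07 for Cyp2c40, -0.20 to 1.48 for Cyp2c69, -0.23 to 0.27 for Cyp2c38, -0.24 to 0.42 for Cyp2c39 and -0.66 to 0.19 for Cyp2c37. For each of these 5 members the interval ends below that member's log2 fold change in intact mice.

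**Figure D5:**
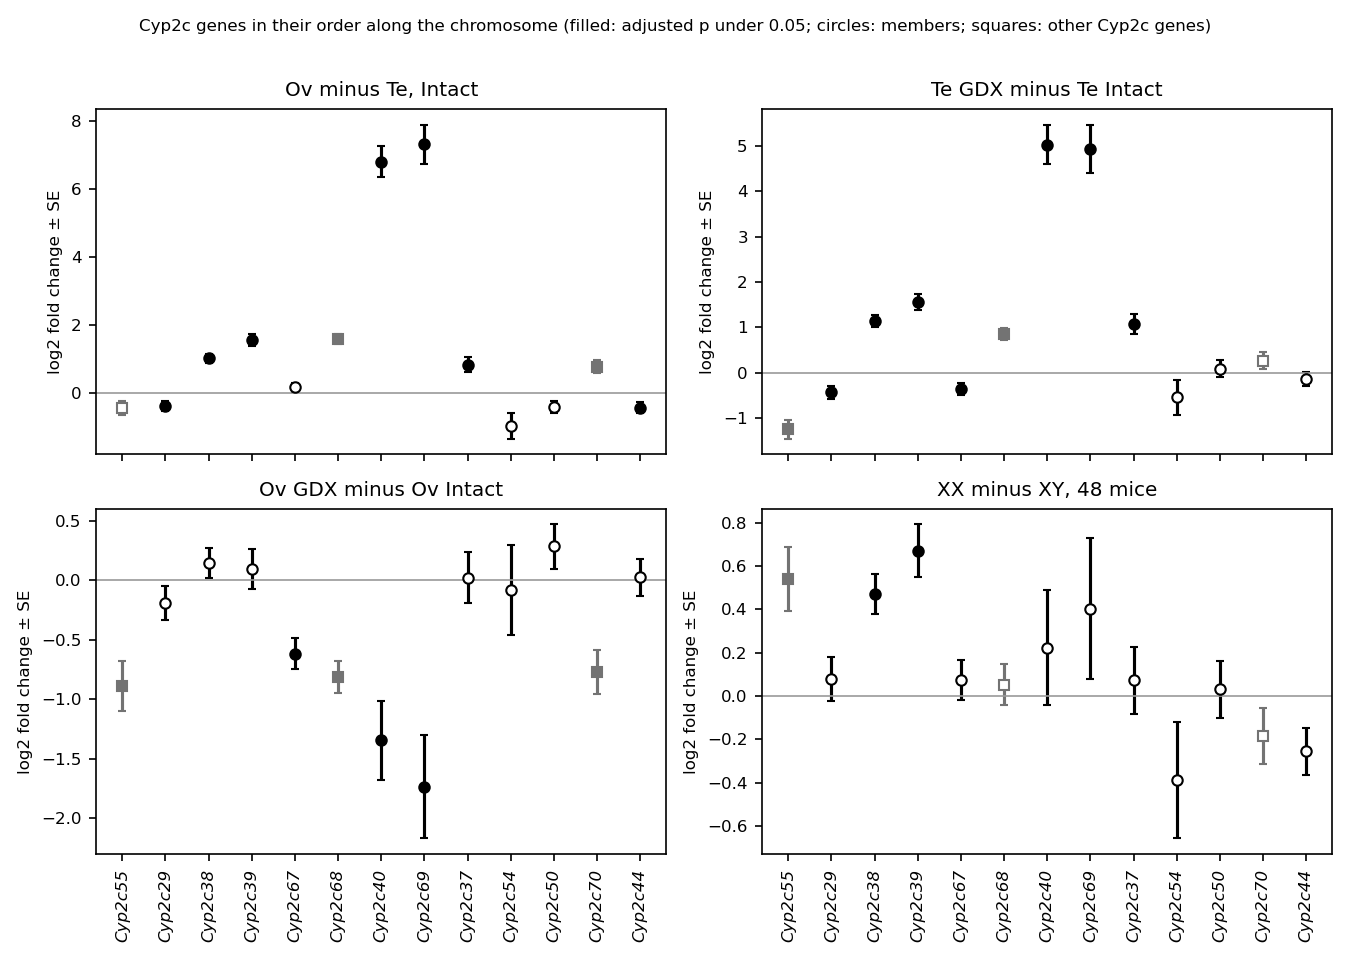
Log2 fold changes (points) with their SE (bars) of the tested Cyp2c genes in 4 comparisons, placed in their order along the chromosome without regard to distance; each panel has its own y axis. Filled points passed an adjusted p of 0.05, circles are members and squares other Cyp2c genes. Cyp2c40 and Cyp2c69 stand at 6.80 and 7.31 between intact mice with ovaries and with testes, next to Cyp2c68 at 1.58.

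XX and XY mice differed in Cyp2c38 and Cyp2c39, the 2 members called higher over all 48 mice (21.9% of all genes were called higher and 14.8% lower). The chromosomal effect (24 XX minus 24 XY mice) was 0.47 ± 0.09 with adjusted p = 5.20e-05 for Cyp2c38 and 0.67 ± 0.12 with adjusted p = 2.01e-05 for Cyp2c39 on the log2 scale. Both were called within intact mice as well (0.58 ± 0.13 with adjusted p = 0.00169 and 0.86 ± 0.18 with adjusted p = 6.10e-04), where 4.27% of all genes were called higher and 6.42% lower. They were also called within GDX mice (0.37 ± 0.13 with adjusted p = 0.0235 and 0.49 ± 0.17 with adjusted p = 0.0217), where 19.5% were called higher and 14.8% lower. Cyp2c38 ran from 92.7 to 279 CPM (median 193) in XX Intact and 35.7 to 244 CPM (median 110.2) in XY Intact mice, and from 209 to 362 CPM (median 296) and 205 to 290.1 CPM (median 265) in GDX mice. The arms overlapped in each case, with 4 of 12 XX Intact and 6 of 12 XX GDX mice above all XY mice of the same status. Cyp2c39 ran from 3.86 to 18.4 CPM (median 8.37) and 0.691 to 12.6 CPM (median 5.57) in intact and from 10.6 to 22.1 CPM (median 15.3) and 9.12 to 15.5 CPM (median 13.4) in GDX mice. Within GDX mice the calls were lost with library totals, without the filter on low counts and without single mice (XY Te Intact replicate 3, XY Ov Intact replicate 6 or XX Ov Intact replicate 6 for both genes, XY Te GDX replicate 1 or XX Te GDX replicate 5 for Cyp2c38 and XX Te GDX replicate 2 for Cyp2c39), with adjusted p-values up to 0.0894 for Cyp2c38 and 0.0619 for Cyp2c39. Cyp2c55 was also higher over all 48 mice, at 0.54 ± 0.15 with adjusted p = 0.00296. The members' median was 0.08 and that of all genes 0.05. No member passed the test of whether GDX changed the chromosomal effect, where 2.12% of all genes were called (0 of 10 by edgeR and by DESeq2, and 3 at an unadjusted p under 0.05). Of all 15414 genes, 2126 had an unadjusted p under 0.05 in this test.

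Immune transcripts had higher medians in XY than in XX mice in most of the group pairs, though not for the lymphocyte list in Te Intact mice. The summed neutrophil list (5 of 5 genes with reads in each group) was 52.0 to 718 CPM in XY Ov Intact against 3.76 to 23.8 in XX Ov Intact mice, and 28.4 to 66.9 in XY Ov GDX against 2.30 to 8.04 in XX Ov GDX mice. In mice with testes it was 6.01 to 109 in XY Te Intact, 2.27 to 38.3 in XX Te Intact, 16.6 to 143 in XY Te GDX and 2.51 to 5.70 in XX Te GDX mice. The macrophage list (6 of 6) was 629 to 938 CPM in XY Ov Intact and 277 to 650 in XX Ov Intact mice, 587 to 1059.6 in XY Ov GDX and 221 to 393 in XX Ov GDX mice, and 392 to 1376 in XY Te GDX and 144 to 379 in XX Te GDX mice. In the Te Intact pair the macrophage sums overlapped, at 272 to 555 in XY and 214 to 769.5 in XX mice, as did those of the lymphocyte list (6 of 6), with medians of 2.05 in XY and 2.25 CPM in XX mice. The lymphocyte medians of the other pairs were 6.24 and 3.46 in Ov Intact, 7.30 and 3.19 in Ov GDX and 5.69 and 2.32 in Te GDX mice, XY given first. The part of these cells in the chromosomal effects on Cyp2c38 and Cyp2c39 was not tested. Of the other members, Cyp2c69 gave 1.34 ± 0.50 with adjusted p = 0.0766 and Cyp2c40 0.97 ± 0.42 with adjusted p = 0.141 in intact mice. Without XX Te Intact replicate 4 these were 0.43 for Cyp2c69 (adjusted p = 0.622) and 0.34 for Cyp2c40 (adjusted p = 0.660). With all mice Cyp2c69 was called with 1 surrogate variable (adjusted p = 0.0373) and by DESeq2 (0.0493), and without XX Te Intact replicate 2 (0.0376). In GDX mice the values were -0.53 ± 0.43 with adjusted p = 0.354 and -0.52 ± 0.33 with adjusted p = 0.228. Cyp2c44 was -0.26 ± 0.11 with adjusted p = 0.0618 over all 48 mice and was called lower in XX mice with DESeq2's size factors, library totals, DESeq2's Wald test, a surrogate variable or at least 10 counts in every mouse (lowest adjusted p = 0.0144).

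A list of 5 genes for electron supply to P450 enzymes held Por, Cyb5a, Cyb5b, Cyb5r3 and Pgrmc1. Electron supply itself was not measured. Of these genes 2 were lower in intact mice with ovaries (11.3% of all genes) and 0 higher (14.1% of all) by edgeR. At an unadjusted p under 0.05 there were 3 (6097 of all 15414 genes). Their extremes were Cyb5r3, the reductase of cytochrome b5, at -0.43 ± 0.12 with adjusted p = 0.00617 and cytochrome b5 itself (Cyb5a) at 0.34 ± 0.16 with adjusted p = 0.107. After castration 1 gene of this list was higher and 3 were lower, where 33.4% and 29.9% of all genes were called higher and lower. After ovariectomy 1 was higher and 3 were lower too, where 36% and 33.4% of all were called. Por, the reductase that feeds all microsomal P450 enzymes, was the highest in both (0.90 ± 0.14 with adjusted p = 3.54e-07 and 0.78 ± 0.14 with adjusted p = 3.01e-06), Pgrmc1 was the lowest after castration (-1.08 ± 0.15 with adjusted p = 5.28e-08) and Cyb5a after ovariectomy (-1.23 ± 0.16 with adjusted p = 1.12e-08). Of the 11 listed genes of the arachidonate epoxide pathway 7 were tested, and 1 was higher and 4 lower with intact ovaries (14.1% and 11.3% of all genes), with a median log2 fold change of -0.43 where that of all genes was 0.04. Pla2g4a, a phospholipase that frees arachidonic acid, was the highest at 1.17 ± 0.23 with adjusted p = 1.68e-04, and the P450 gene Cyp2j9 the lowest at -0.78 ± 0.16 with adjusted p = 4.96e-04. Pla2g4a was the gene of this list lowest in XX mice (-1.65 ± 0.17 with adjusted p = 3.24e-11), and Ephx1, microsomal epoxide hydrolase, the highest (0.63 ± 0.08 with adjusted p = 1.88e-08).

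Of 16 listed factors that act on liver P450 genes, 4 were higher and 7 lower with intact ovaries (14.1% and 11.3% of all genes), with a median log2 fold change of -0.22. Cux2, a repressor known to be higher in female mouse liver, was highest at 5.31 ± 0.44 with adjusted p = 6.06e-13, and Bcl6, a repressor known to oppose STAT5, lowest at -1.72 ± 0.24 with adjusted p = 3.86e-07. Cux2 ran from 3.55 to 78.0 CPM (median 18.3) in Ov Intact and 0.189 to 1.97 CPM (median 0.475) in Te Intact mice, and from 14.3 to 97.8 CPM (median 52.7) in Te GDX mice. These 2 factors were again the extremes after castration, Cux2 at 6.04 ± 0.44 with adjusted p = 1.82e-14 and Bcl6 at -0.82 ± 0.23 with adjusted p = 0.00226, where 7 factors were higher and 1 lower (33.4% and 29.9% of all genes). After ovariectomy 12 of the 16 were higher and 0 lower (36% and 33.4% of all genes; median 0.50, that of all genes 0.06), with Bcl6 the highest (1.25 ± 0.23 with adjusted p = 1.15e-05) and Nr1i3, which encodes CAR, the lowest (0.10 ± 0.13 with adjusted p = 0.489). Between former ovaries and former testes no gene of the 3 lists was called. Of all genes 0.0584% were called higher and 0.0324% lower there, so few calls were to be had in any list.

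Across the 48 mice Cyp2c40 and Cyp2c69 followed each other most closely of all pairs of members, with Pearson's r of 0.988 on log2 CPM and 0.933 once each group's mean was taken off. Cyp2c38 and Cyp2c39 had 0.935 and 0.744, and Cyp2c50 and Cyp2c54 0.785 and 0.809. The points of these correlations share their libraries, and both members of each pair share stretches of sequence. The reads of Cyp2c69 were 1.45 to 2.35 times those of Cyp2c40 in group medians. As 72.1% of the windows of Cyp2c40 and 51.4% of those of Cyp2c69 were shared with another Cyp2c transcript, this need not be the ratio of their RNA levels. Outside the subfamily, among the 12144 genes whose log2 CPM averaged 0 or more, the 3 genes most like Cyp2c40 were Slc22a26 (r = 0.927, and 0.616 within groups), 1700055N04Rik (0.922 and 0.272) and Eci3 (0.916 and 0.443). Those most like Cyp2c69 were Slc22a26, Eci3 and Cyp2a4, with r of 0.900, 0.900 and 0.888, and of 0.598, 0.419 and 0.185 within groups. Cyp2c38 was most like Cyp2b9 (0.908, and 0.712 within groups), Slco1a4 (0.895 and 0.608) and Cyp2a22 (0.894 and 0.587). Cyp2c39 was most like Cyp2a22 (0.922, and 0.716 within groups), Slc16a5 (0.901 and 0.638) and Slco1a4 (0.890 and 0.605). For Cyp2c37 they were Nr1i3 (0.835, and 0.780 within groups), F7 and Afmid, and for Cyp2c50 Cyp2e1 (0.826 and 0.823), Lrtm1 and Hsd3b3. Cyp2c67 was most like Dars (0.883), AI182371 and Nars2, and Cyp2c54 like C8b (0.775), Ces3b and Keg1. For Cyp2c29 (Serpina1d at 0.722, Rbl2 and Ces2a) and Cyp2c44 (Ccbl1 at 0.734, 1700001L05Rik and Cyp4f14) the closest genes were less alike.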

How the data were processed

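Livers of 48 FCG mice were sequenced, 1 library a mouse. Per the labels and the study's methods, the authors aligned reads to GRCm39 and counted them per gene with STAR 2.7.10a, and deposited raw read counts for 55414 genes. The submitters' processing notes also list DESeq2 1.36.0. The annotation release, strand setting and treatment of multimapping reads are not given in the sources used here. The 4 summary lines stayed out of library sizes and tests. Multimapping reads made up 8.59% to 10.8% in GDX and 10.7% to 18.9% in intact libraries, and ambiguous reads 2.53% to 3.55% over all libraries. All value columns were mapped to a mouse by its identifier, and groups came from the labels.

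From these counts, CPM used library totals (13071874 to 20045141 reads), and 3 reads, the smallest level shown, equal 0.150 to 0.230 CPM. Floors cover counting error only, since the counts hold no molecular identifiers. edgeR 4.0.16 (quasi-likelihood, robust, TMM, filterByExpr) was fitted in R 4.3.3 with a mean per group to all 48 mice. Comparisons were contrasts of group means, with Benjamini-Hochberg adjustment over 15414 genes and a threshold of 0.05. The script was tested on simulated data. Alternatives were DESeq2 1.42.0 and its size factors, library totals, no filter, at least 10 counts in every mouse, the compared arms alone, 1 surrogate variable (sva 3.50.0), a fold change above 1.5 (glmTreat), each mouse left out, and near-identical genes summed. Each mouse is a separate animal.

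All 10 members are named, with the other Cyp2c genes found in the table, the extremes of 3 lists in a comparison and, per member, the 3 genes with the highest Pearson's r. Members and lists were chosen with earlier results of these data known. Symbols were found for 31020 of the 55414 gene identifiers. Transcripts and coordinates are from NCBIM37, and promoters from RefSeq on GRCm38.p6. No coordinate was converted between builds.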

Additional observations from a re-analysis of the deposited data

Results flagged for a closer look

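In 6 of 80 groups of 6 mice the highest or lowest Cyp2c value stood apart from the others by Dixon's test, which chance gives in about 1 of 20. Both Cyp2c40 (6.84 CPM, others 0.484 to 1.45) and Cyp2c69 (16.1 CPM, others 0.323 to 1.56) were high in XX Te Intact replicate 4, the XX library with the highest levels of Y-linked genes. Cyp2c37 was low (220.3 CPM, others 490.5 to 640.0) and Cyp2c44 high (316 CPM, others 101 to 163) in XX Ov Intact replicate 4. Cyp2c44 was low in XY Te GDX replicate 1 (247 CPM, others 273 to 287), and Cyp2c50 was high in XY Ov Intact replicate 3 (791 CPM, others 288 to 476).

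The effects of castration and ovariectomy differed in the test of the difference for Cyp2c37 (1.06 on the log2 scale), Cyp2c38 (0.995), Cyp2c39 (1.47), Cyp2c40 (6.37) and Cyp2c69 (6.67), castration being the higher. This test is not independent of the gonadal effect in intact mice.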

How the results depend on the processing

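No called member changed direction under the alternatives run. The counts below are of members only, without the share of all genes called under the same setting. From these counts alone, a shift particular to the members cannot be told from one shared by all genes, and they are not read as results about the members. At a required fold change above 1.5 the members called fell from 7 to 4 in the gonadal effect, from 7 to 5 after castration, from 3 to 2 after ovariectomy, from 5 to 3 in castration minus ovariectomy, and from 2 to 0 in the chromosomal effect over all, intact and GDX mice. With 1 surrogate variable, which changed 10 calls of single members, they numbered 8 in the gonadal effect, 6 after castration, 3 after ovariectomy (Cyp2c50 gained, Cyp2c69 lost), 4 in castration minus ovariectomy and 3 in each chromosomal effect. With library totals they numbered 5 after ovariectomy (from 3), 1 in the chromosomal effect in GDX mice (from 2) and 1 in the chromosome by GDX interaction (from 0). With at least 10 counts in every mouse, which removed Cyp2c40 and Cyp2c69, they numbered 1 after ovariectomy and 3 in castration minus ovariectomy. In the chromosomal effect in GDX mice they numbered 0 without a filter, 4 in a fit of GDX mice alone and 0 without XY Te Intact replicate 3. Leaving out each mouse gave 5 to 9 in the gonadal effect (5 without any one of 8 mice, XX Te Intact replicates 1, 3 and 5, XY Te Intact 4 and 5, XX Ov Intact 2 and XY Ov Intact 2 and 5, and 9 without XX Te Intact replicate 2 or XY Ov Intact replicate 3), 2 to 3 in the chromosomal effect, 2 to 3 in intact and 0 to 2 in GDX mice, 3 after ovariectomy, 6 to 7 after castration, 4 to 5 in castration minus ovariectomy and 0 in the other comparisons.

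Over single members, 4744 values kept their side of the threshold when a mouse was left out, 39 lost and 17 gained it. Under the other alternatives 703 kept it, 30 lost and 17 gained it. Library totals moved the share of all called genes that were higher from 55.6% to 68.0% in the gonadal effect, from 51.9% to 66.1% after ovariectomy, from 52.7% to 69.4% after castration, and from 59.8% to 28.2%, 39.9% to 24.5% and 56.8% to 18.8% in the chromosomal effect over all, intact and GDX mice, and from 19.0% to 6.97% in the chromosome by GDX interaction. Of 80 group levels 75 moved by less than 1 SD with TMM-scaled CPM. The cause was not tested. No paired analysis was possible because each mouse is a separate animal and replicate numbers follow accession order. Levels of Cyp2c40 and Cyp2c69 in intact mice with testes rest on 3 to 28 and 6 to 29 reads outside XX Te Intact replicate 4.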
